A study of Mus musculus with 12 samples.

Results

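The 4 AMPA receptor subunit genes Gria1 to Gria4 and 6 genes of their transmembrane regulatory proteins (TARPs), Cacng2, Cacng3, Cacng4, Cacng5, Cacng7 and Cacng8, were followed in sorted mouse glioma cells. They were taken by name, 10 of 19938 measured genes, each through the brightest of its probe sets by the mean over all 12 arrays. RNA came from ZsGreen-tagged tumor cells of FVB mice with pEGFR-Hi tumors (6 mice) or pEGFR-Lo tumors (6 mice), 1 array per mouse. Both lines started from Ink4a/Arf null neural progenitor cells of the subventricular zone that carried human EGFRvIII, a constitutively active form of the EGF receptor, and phosphorylation of EGFRvIII was higher in the pEGFR-Hi line. The lines had been passaged as tumors in mice before 2 µl of a suspension of 200000 cells per µl was injected intracranially. Each group was 1 tumor line, so the p-values measure the spread among mice and not among lines, and brains were taken near the median survival of each group and this differed between them, so that line and time since injection cannot be told apart. The sources used here do not give the age of the mice.

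AMPA receptors are glutamate-gated cation channels built as tetramers of GluA subunits, and they carry most fast excitatory transmission in the brain. The GluA2 subunit, made from an RNA edited at a single codon, keeps calcium from passing through the channel, so receptors that lack it let calcium in. TARPs are small membrane proteins named for their likeness to a calcium channel gamma subunit. They bring the receptors to the cell surface and to synapses and slow their closing. In the brain, oligodendrocyte progenitors as well as neurons carry AMPA receptors and receive glutamatergic input through them, and human high-grade gliomas have been found to do the same.

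Of the 10 genes, 4 were called lower in pEGFR-Hi and none was called higher. These were Gria1, Gria2 and Gria3 of the receptor subunits and Cacng4 of the TARPs. Called genes here had a Benjamini-Hochberg adjusted p under 0.01 over all genes in limma and a difference of at least 2-fold. Over all genes 5.06% were called lower in pEGFR-Hi and 3.99% were called higher. The median log2 difference, pEGFR-Hi minus pEGFR-Lo, was -0.51 over the 10 genes and 0.01 over all genes. The groups did not overlap in 6 genes, each lower in pEGFR-Hi, against 11.1% of all genes in that direction and 12.2% in the other. With an adjusted p limit of 0.05 and no fold limit, the same count was 6 lower and 0 higher in pEGFR-Hi, against 16.6% and 19.4% of all genes. Levels are log2 RMA values, and a group mean of 4.10 or less was taken as background, the value under which 95% of 1027 olfactory receptor genes lay. By this limit 5 of the 10 genes were above background in pEGFR-Hi and 8 in pEGFR-Lo, both counts including Cacng2, for which this held for 1 of its 2 probe sets. The samples are bulk RNA of sorted cells, so fewer cells with a transcript and less of it per cell cannot be told apart.

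**Figure D1:**
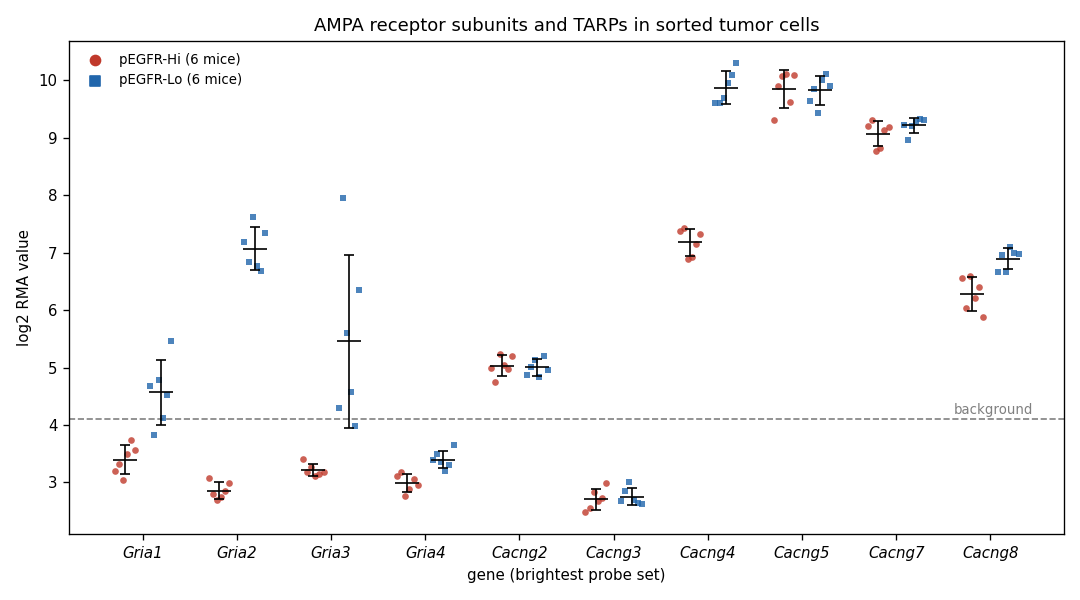
Log2 RMA value (y axis) of each gene (x axis) in 6 pEGFR-Hi mice (red circles) and 6 pEGFR-Lo mice (blue squares), with bars for the mean and SD and a dashed line for background at 4.10. Heights are comparable between groups of 1 gene but not between genes, since probes differ; Gria2 lies below the line in all 6 pEGFR-Hi mice and between 6.68 and 7.62 in pEGFR-Lo mice.

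Some arrays stood apart within the groups. The mean log2 value of 15 interferon-stimulated genes lay between 7.98 and 9.17 in pEGFR-Hi. Among pEGFR-Lo mice, replicate 3 at 5.33 and replicate 6 at 5.19 were lowest, and the remaining mice lay between 6.64 and 7.12. Aqp4, the water channel of astrocytes, was 5.23 to 5.87 in odd-numbered and 3.65 to 4.48 in even-numbered pEGFR-Hi replicates. Without pEGFR-Lo replicates 3 and 6, 2 members were called lower in pEGFR-Hi, and 3 were in odd-numbered and in even-numbered replicates.

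Gria2, which encodes the GluA2 subunit, had the largest fitted difference of the family. It had a log2 value of 2.69 at the lowest, 2.82 at the median and 3.07 at the highest in pEGFR-Hi mice, against 6.68, 7.01 and 7.62 in pEGFR-Lo mice. All 6 pEGFR-Hi mice were below background and all 6 pEGFR-Lo mice were above it, with a gap of several log2 units between the groups. The means were 2.86 ± 0.15 in pEGFR-Hi and 7.07 ± 0.37 in pEGFR-Lo (SD, 6 mice per group), giving a log2 difference of -4.21 with a 95% confidence interval of -4.52 to -3.90 (adjusted p = 5.49e-12 from limma). Measured against the background level, Gria2 was at least 7.82-fold lower in pEGFR-Hi. No array decided this result: leaving out each in turn gave log2 differences of -4.29 to -4.10.

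Gria1, which encodes GluA1, was also lower in pEGFR-Hi, but its values lay close to background in both groups. It had 3.05 at the lowest, 3.41 at the median and 3.75 at the highest in pEGFR-Hi mice, against 3.83, 4.6 and 5.46 in pEGFR-Lo mice. The groups did not overlap, and 5 of the 6 pEGFR-Lo mice and none of the pEGFR-Hi mice were above background. The log2 difference was -1.17 with a 95% confidence interval of -1.63 to -0.72 (adjusted p = 3.50e-04 from limma), which against background is a fold of at least 1.38. pEGFR-Lo replicate 6 was the highest, and without it the log2 difference was -0.99, under the 2-fold limit (adjusted p = 2.66e-04 from limma). Without pEGFR-Lo replicates 3 and 6 it was -0.90 (adjusted p = 9.15e-04 from limma), and in even-numbered replicates -1.01 (adjusted p = 0.0704 from limma).

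Gria3, the X-linked gene of GluA3, was at background in every pEGFR-Hi mouse and varied widely among pEGFR-Lo mice. It was 3.11 at the lowest, 3.19 at the median and 3.41 at the highest in pEGFR-Hi mice. In pEGFR-Lo replicates 1 to 6 it was 4.30, 7.95, 5.60, 4.57, 3.99 and 6.36. The pEGFR-Lo mice thus covered 3.96 log2 units, a 15.6-fold range, with replicate 2 highest and replicate 5 below background, while the pEGFR-Hi mice covered 0.30. The SD over pEGFR-Lo mice was 1.51, the tenth largest of 19938 genes (rank 10), and the SD over pEGFR-Hi mice was 0.11, which 18.8% of genes fell below. The median SD of all genes was 0.18 in pEGFR-Lo and 0.17 in pEGFR-Hi. The group means were 3.22 in pEGFR-Hi and 5.46 in pEGFR-Lo, a log2 difference of -2.24 with a 95% confidence interval of -3.31 to -1.17 (adjusted p = 0.00201 from limma) and a fold of at least 2.56 against background. The call was lost in odd-numbered replicates (log2 difference -1.35, adjusted p = 0.0206), without pEGFR-Lo replicates 3 and 6 (-1.98, adjusted p = 0.0157) and with a variance prior that follows the mean and is robust to outlying genes (-2.24, adjusted p = 0.0128), all from limma. In even-numbered replicates the log2 difference was -3.13 (adjusted p = 0.00828 from limma).

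**Figure D2:**
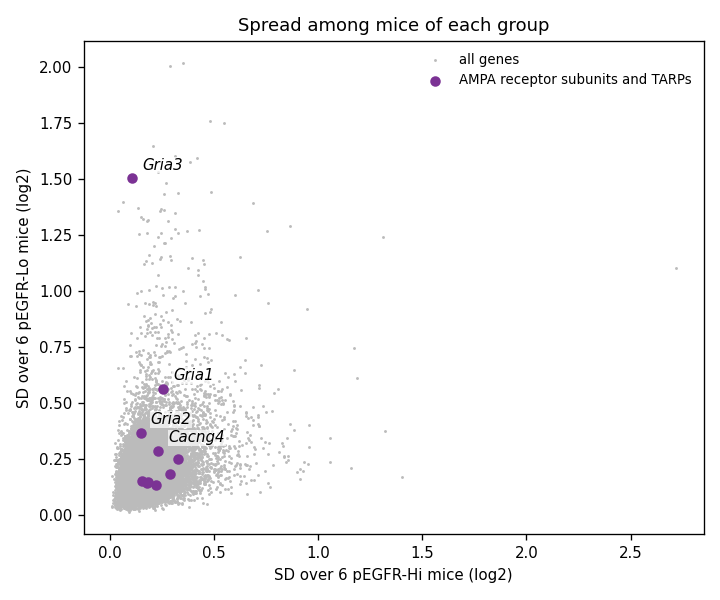
SD of log2 values over 6 pEGFR-Hi mice (x axis) and over 6 pEGFR-Lo mice (y axis) for all measured genes (grey) and the 10 AMPA receptor and TARP genes (purple). Gria3 has an SD of 0.11 in pEGFR-Hi and 1.51 in pEGFR-Lo, while the other 9 genes have SDs of 0.57 or less in both groups.

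Gria4, which encodes GluA4, was not above background on any array. It had 2.77 at the lowest, 3.0 at the median and 3.18 at the highest in pEGFR-Hi mice, against 3.20, 3.37 and 3.65 in pEGFR-Lo mice. The groups did not overlap (log2 difference -0.41, adjusted p = 0.00252 from limma), but the difference was under 2-fold and no fold is given because both groups were at background. Since Gria1, Gria2 and Gria3 were below background in every pEGFR-Hi mouse, each has only a lower bound on its fold. The place of Gria2 as largest refers to the fitted values, and the sizes of these differences were not otherwise compared.

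Among the TARPs, Cacng4 was 6.46-fold lower in pEGFR-Hi. It encodes gamma-4, a TARP that is well known from immature brain and from glial cells. It had a log2 value of 6.89 at the lowest, 7.24 at the median and 7.42 at the highest in pEGFR-Hi mice, against 9.60, 9.82 and 10.30 in pEGFR-Lo mice. Both groups were well above background and did not overlap. The means were 7.18 ± 0.23 in pEGFR-Hi and 9.87 ± 0.29 in pEGFR-Lo (SD, 6 mice per group), giving a log2 difference of -2.69 with a 95% confidence interval of -2.98 to -2.40 (adjusted p = 3.34e-10 from limma). Leaving out each array in turn gave -2.75 to -2.61.

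Cacng8, the gene of gamma-8, which is the TARP of hippocampal neurons, was lower in pEGFR-Hi by less than 2-fold. It had 5.88 at the lowest, 6.31 at the median and 6.59 at the highest in pEGFR-Hi mice, against 6.66, 6.97 and 7.10 in pEGFR-Lo mice. The groups did not overlap, and the fold of 1.53 had a 95% confidence interval of 1.27 to 1.85 (adjusted p = 0.00116 from limma), so it was not called.

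Cacng5 and Cacng7 encode gamma-5 and gamma-7, which form a second class of TARPs with their own effects on the channel. Both genes were above background on all 12 arrays. Cacng5 had 9.30 at the lowest, 9.98 at the median and 10.11 at the highest in pEGFR-Hi mice, against 9.42, 9.87 and 10.11 in pEGFR-Lo mice. The groups overlapped almost fully, and the log2 difference was 0.03 with a 95% confidence interval of -0.29 to 0.34 (adjusted p = 0.926 from limma). For Cacng7 the values were 8.76, 9.16 and 9.31 in pEGFR-Hi mice, against 8.96, 9.24 and 9.33 in pEGFR-Lo mice, a log2 difference of -0.14 with an interval of -0.36 to 0.08 (adjusted p = 0.342 from limma). A difference of 2-fold in either direction lies outside both intervals. By subtraction of the fitted log2 differences, that of Cacng4 was larger than that of Cacng5 by 2.72, of Cacng7 by 2.55 and of Cacng8 by 2.08, toward lower values in pEGFR-Hi and with no test.

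Cacng2, the gene of stargazin, which is the founding TARP and is missing in the stargazer mouse, was measured by 2 probe sets that gave different levels. The brightest, used here by rule, lay at 4.75 to 5.24 in pEGFR-Hi mice and 4.83 to 5.21 in pEGFR-Lo mice, just above background. It is annotated to cDNA clones without the RefSeq transcript. The other probe set, which is annotated to the RefSeq transcript of Cacng2, was below background on all 12 arrays, at 3.17 to 3.68 in pEGFR-Hi mice and 3.25 to 3.56 in pEGFR-Lo mice. Whether Cacng2 was above background therefore depended on the probe set, and neither showed a separation of the groups. With the brighter probe set the log2 difference was 0.03 with a 95% confidence interval of -0.17 to 0.24 (adjusted p = 0.854 from limma). Cacng3, a TARP gene of cortical neurons, was below background on all 12 arrays, at 2.49 to 2.99 in pEGFR-Hi mice and 2.62 to 3.0 in pEGFR-Lo mice (log2 difference -0.04, adjusted p = 0.828 from limma). Apart from Cacng2, the genes above background in pEGFR-Hi cells were Cacng4, Cacng5, Cacng7 and Cacng8, and in pEGFR-Lo cells they were these and Gria1, Gria2 and Gria3. No receptor subunit gene had a mean above background in pEGFR-Hi.

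**Figure D3:**
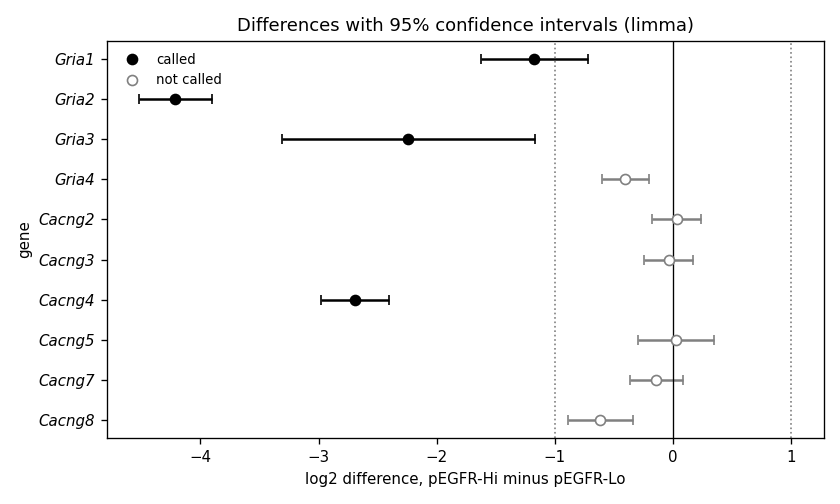
Log2 difference, pEGFR-Hi minus pEGFR-Lo (x axis), for each gene (y axis), with the 95% confidence interval from limma over 6 mice per group. Filled points are called genes, and dotted lines mark 2-fold. Gria2 at -4.21 and Cacng4 at -2.69 have intervals far from 0, and those of Cacng2, Cacng3, Cacng5 and Cacng7 span 0.

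The array measures RNA and says nothing of how it is made, but RefSeq promoter windows show what lies in front of these genes. Windows were found for 7 of the 10 genes, and the 250 bases before the start are printed for a receptor subunit that differed between the groups (Gria2), a subunit at background in both (Gria4) and 2 of the TARPs that were above background in both and not called (Cacng5, at the upstream one of its 2 starts, and Cacng7). Each is given 5′ to 3′ on the gene's strand with CpG dinucleotides in capitals, from the RefSeq annotation of GRCm38.p6.
Gria2 (chr3:80802836-80803085, minus strand): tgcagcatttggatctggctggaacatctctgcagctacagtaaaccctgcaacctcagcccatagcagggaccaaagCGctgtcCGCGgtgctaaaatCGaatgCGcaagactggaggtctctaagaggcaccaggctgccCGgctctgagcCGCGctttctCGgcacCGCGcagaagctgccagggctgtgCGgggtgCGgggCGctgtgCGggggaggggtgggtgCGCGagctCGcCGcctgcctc
Gria4 (chr9:4796235-4796484, minus strand): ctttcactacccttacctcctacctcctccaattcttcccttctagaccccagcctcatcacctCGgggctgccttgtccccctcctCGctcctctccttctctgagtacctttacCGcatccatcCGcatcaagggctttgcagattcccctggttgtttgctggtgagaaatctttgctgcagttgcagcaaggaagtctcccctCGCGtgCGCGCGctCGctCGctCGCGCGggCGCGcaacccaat
Cacng5 (chr11:107915056-107915305, minus strand): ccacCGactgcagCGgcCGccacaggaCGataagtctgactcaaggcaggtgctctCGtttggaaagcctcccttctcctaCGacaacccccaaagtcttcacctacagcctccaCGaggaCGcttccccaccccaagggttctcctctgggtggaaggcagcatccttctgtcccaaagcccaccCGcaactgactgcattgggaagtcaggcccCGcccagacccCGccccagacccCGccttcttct
Cacng7 (chr7:3332575-3332824, plus strand): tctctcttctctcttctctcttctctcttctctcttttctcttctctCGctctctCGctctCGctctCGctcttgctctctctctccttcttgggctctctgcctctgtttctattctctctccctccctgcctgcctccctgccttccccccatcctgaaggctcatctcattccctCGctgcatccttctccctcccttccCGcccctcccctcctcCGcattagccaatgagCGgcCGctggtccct
The Gria2 window held 19 CpG dinucleotides, that of Gria4 16, that of Cacng5 12 and that of Cacng7 9, against a median of 6 over all 32851 windows. GC content was 64.8% for Gria2, 58.8% for Gria4, 62.0% for Cacng5 and 58.0% for Cacng7, with a median of 52.4% over all windows. The windows not printed varied more. That of Cacng8 held 0 CpG dinucleotides at 48.0% GC, the other start of Cacng5 held 2, Cacng3 8 and Cacng2 16. On both strands the letters CAGCTG (an E-box of proneural factors), GGGCGG (a GC box) and TGACGTCA (the cyclic AMP response element) were searched, none of which contains another. CAGCTG was found in 13.0% of all windows, GGGCGG in 32.7% and TGACGTCA in 1.55%. Neither the Gria2 nor the Gria4 window held any of the 3, while the printed Cacng5 window held 2 GC boxes and the Cacng7 window held 1. Among the windows not printed, those of Cacng2 and Cacng3 each held 1 CAGCTG. A match or its absence describes these letters in this window and not the binding of a factor.

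Most genes next to the members were not called. Cacng4 and Cacng5 are neighbours on chromosome 11 beside Cacng1, a gamma subunit of the muscle calcium channel, yet the log2 differences were -2.69 for Cacng4, 0.03 for Cacng5 and -0.04 for Cacng1. Cacng7 and Cacng8 are neighbours on chromosome 7, at -0.14 and -0.61. The 10 measured genes on each side of Cacng4 had a median log2 difference of 0.22, those around Gria2 of -0.06 and those around Gria3 of -0.05. Beside Gria2, the next gene Glrb, the beta subunit of the glycine receptor, was called lower in pEGFR-Hi at a log2 difference of -1.29, as was Pdgfc, a growth factor gene, at -2.03, both named after their values were seen, while the other 18 neighbours were not called. No neighbour of Gria3, Cacng7 or Cacng8 was called. Around Gria1, 1 neighbour was called higher in pEGFR-Hi and 2 lower, and around Gria4 2 were higher and 0 lower. The counts were 1 higher and 0 lower for Cacng4, 1 and 1 for Cacng3, and 0 and 1 for Cacng2. For Cacng5 they were 1 and 1, the lower one being Cacng4. Over all genes 3.99% were called higher and 5.06% lower. Around Cacng2, on chromosome 15, the median was -0.11.

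**Figure D4:**
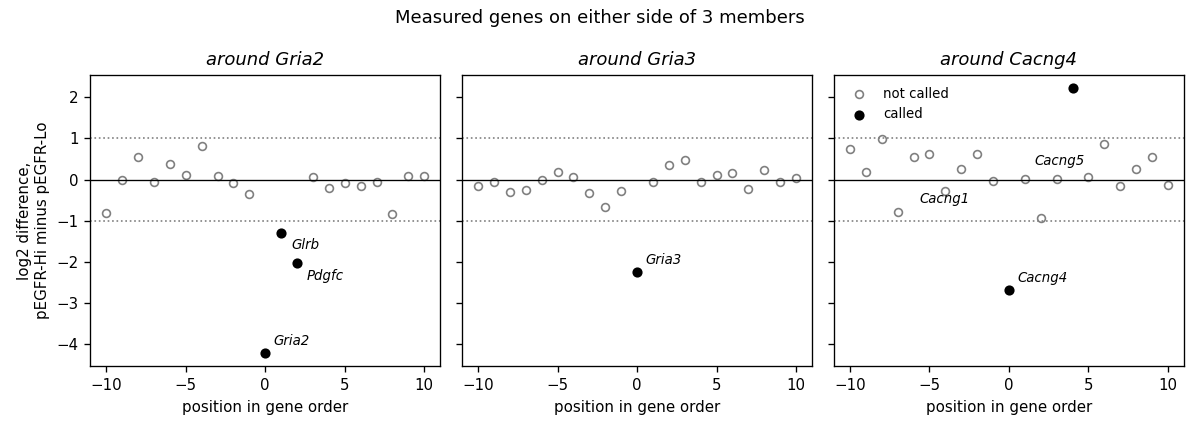
Log2 difference, pEGFR-Hi minus pEGFR-Lo (y axis), of the 10 measured genes on each side of Gria2, Gria3 and Cacng4 in the order of the RefSeq annotation (x axis, member at 0). Filled points are called genes and dotted lines mark 2-fold. The members lie at -4.21, -2.24 and -2.69, and most neighbours lie within 1 of 0.

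Several genes of other proteins that bind or assemble AMPA receptors were called lower in pEGFR-Hi. Of 24 measured genes of other auxiliary and assembly proteins, 8 were called lower in pEGFR-Hi, none was called higher and 16 did not pass (median log2 difference -0.43), where 5.06% of all genes were called lower and 3.99% higher. The count was 6 in odd-numbered replicates and 7 without pEGFR-Lo replicates 3 and 6. Lrrtm3, a postsynaptic adhesion protein, was 9.51-fold lower in pEGFR-Hi. It had 3.89 at the lowest, 4.45 at the median and 4.59 at the highest in pEGFR-Hi mice, against 7.22, 7.55 and 7.91 in pEGFR-Lo mice (adjusted p = 2.32e-10 from limma). Its pEGFR-Hi values lay near background, with 4 of 6 mice above it. Shisa7, a receptor auxiliary protein of the CKAMP family, was 5.56-fold lower (adjusted p = 3.30e-09 from limma), Frrs1l, which helps assemble the receptors in the endoplasmic reticulum, was 3.07-fold lower, and Olfm2, a secreted olfactomedin found in receptor complexes, was 2.90-fold lower in pEGFR-Hi. Shisa6, named after its values were seen, was at least 9.13-fold lower in pEGFR-Hi by group means, at 3.55 ± 0.18 in pEGFR-Hi and 7.29 ± 1.31 in pEGFR-Lo (SD, 6 mice per group). Like Gria3 it spread among pEGFR-Lo mice, with 4.81 at the lowest, 7.75 at the median and 8.30 at the highest.

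With the 2-fold limit, scaffold and trafficking genes were called about as often as genes in general. Of 35 measured, 2 were called lower in pEGFR-Hi, none was called higher and 33 did not pass, near the 5.06% of all genes called lower, with a median log2 difference of -0.17. In odd-numbered replicates, and without pEGFR-Lo replicates 3 and 6, the count was 3. Some genes under the 2-fold limit were also lower in pEGFR-Hi without overlap of the groups. Among them, Myo5a was 1.98-fold lower (adjusted p = 4.51e-06 from limma) and Dlgap4 1.64-fold lower (adjusted p = 3.01e-05 from limma). Others were higher, such as Dlg1 at a log2 difference of 0.51, with overlap. These genes were named after their values were seen. Dlgap1, a protein of the postsynaptic density, was 2.60-fold lower in pEGFR-Hi (6.20 ± 0.17 in pEGFR-Hi and 7.57 ± 0.25 in pEGFR-Lo, SD, 6 mice per group; adjusted p = 1.21e-07 from limma), and Myo6, a motor that carries receptors inward, was 2.22-fold lower (adjusted p = 1.86e-06 from limma). None of the 3 adenosine deaminases of RNA editing was called with all arrays (2 of them had an adjusted p under 0.05 in limma, and SAM called none). Adarb1, the enzyme that edits the Gria2 transcript, was 6.20 to 6.52 in pEGFR-Hi mice and 6.53 to 6.93 in pEGFR-Lo mice, a log2 difference of -0.30 (adjusted p = 0.0164 from limma). Adar, whose longer form is induced by interferon, was 7.34 to 7.91 in pEGFR-Hi mice and 6.33 to 6.97 in pEGFR-Lo mice, a log2 difference of 0.86 (adjusted p = 4.11e-05 from limma), with pEGFR-Lo replicates 3 and 6 lowest, and it was called in odd-numbered replicates. Editing itself was not measured.

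**Figure D5:**
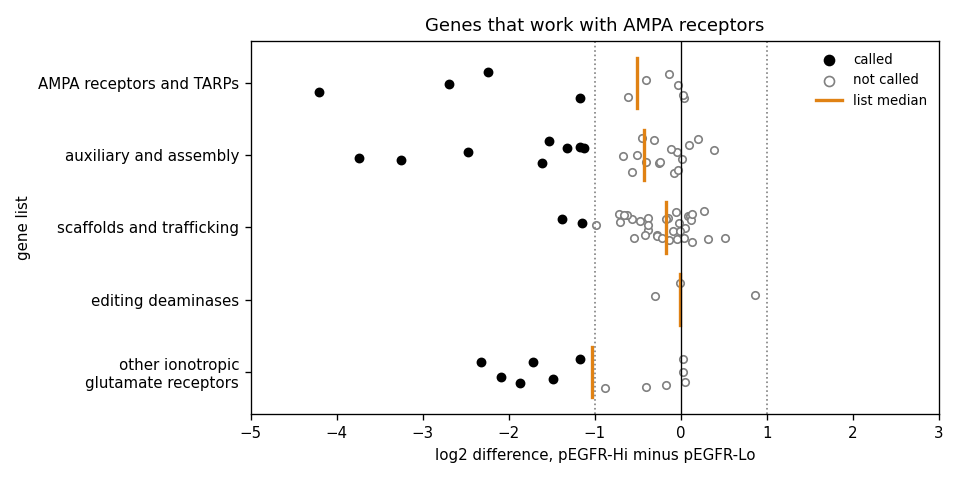
Log2 difference, pEGFR-Hi minus pEGFR-Lo (x axis), of each measured gene of 5 lists (y axis). Points are genes, filled where called and spread vertically for legibility, orange bars are list medians and dotted lines mark 2-fold. No gene of these lists is called toward pEGFR-Hi, and the medians run from -1.03 for other ionotropic glutamate receptors to -0.01 for editing deaminases.

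Other ionotropic glutamate receptor genes were called in the same direction. Of 12 measured kainate, NMDA and delta subunits, 6 were called lower in pEGFR-Hi and none was called higher, where 5.06% of all genes were called lower and 3.99% higher. The median log2 difference was -1.03. The kainate subunit Grik4 was 4.28-fold lower in pEGFR-Hi, at 4.13 ± 0.16 in pEGFR-Hi and 6.23 ± 0.15 in pEGFR-Lo (SD, 6 mice per group; adjusted p = 7.68e-11 from limma), and Grik2 was at least 2.32-fold lower. The pEGFR-Hi mean of Grik4 lay barely above background, with 4 of 6 mice above it, so its fold is close to a lower bound. Low AMPA subunit levels in pEGFR-Hi were thus not shown to be particular to the AMPA class.

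Markers of cell types moved with these genes in part, and their part in the differences was not tested. The counts below stand beside 5.06% of all genes called lower in pEGFR-Hi and 3.99% called higher. A count of 1 in a list was not read as a result about that list. Of 14 oligodendrocyte progenitor markers 6 were called lower in pEGFR-Hi and none was called higher. The 6 were Pcdh15, Nkx2-2, Lhfpl3, Vcan, Ptprz1 and Cspg5, named after their values were seen. The summed linear signal of the list (2 raised to the log2 value) was 3043 to 3809 in pEGFR-Hi mice and 7860 to 8987 in pEGFR-Lo mice. Such a sum weighs the brightest genes most. None of the defining ones, Olig2, Pdgfra and Sox10, was called. Pdgfra was lower in pEGFR-Hi without overlap of the groups and fell just short of 2-fold (log2 difference -0.98, adjusted p = 1.35e-05 from limma). Sox10 was lower by less (-0.37, adjusted p = 0.014 from limma). The mean of Olig2 was higher in pEGFR-Hi (log2 difference 0.26, adjusted p = 0.058 from limma). Olig2 was 8.76 to 9.19 in pEGFR-Hi mice and 8.45 to 8.92 in pEGFR-Lo mice, Pdgfra was 4.0 to 4.77 in pEGFR-Hi mice and 4.90 to 5.44 in pEGFR-Lo mice, and Sox10 was 4.59 to 5.17 in pEGFR-Hi mice and 5.10 to 5.56 in pEGFR-Lo mice. Of 14 immature neuron markers 6 were called lower in pEGFR-Hi and none was called higher, with a summed signal of 1924 to 2290 in pEGFR-Hi mice and 3372 to 3884 in pEGFR-Lo mice. Of 19 mature neuron markers 1, Syn1, was lower in pEGFR-Hi and 18 did not pass, and the summed signal was 384 to 418 in pEGFR-Hi mice and 498 to 709 in pEGFR-Lo mice. Syn1 weighed heavily in this sum, at 5.43 to 6.32 in pEGFR-Hi mice and 6.99 to 8.04 in pEGFR-Lo mice. The median log2 difference of the list was -0.05, so the sum does not show a shift of the list. Slc17a7, the vesicular glutamate transporter of excitatory neurons, lay near background in both groups, at 3.70 to 4.21 in pEGFR-Hi mice and 3.66 to 4.17 in pEGFR-Lo mice. Snap25, an abundant synaptic transcript, was 3.44 to 3.75 in pEGFR-Hi mice and 4.15 to 4.55 in pEGFR-Lo mice. Of 13 astrocyte markers 1, Gfap, was called higher in pEGFR-Hi and 4, Slc1a2, Slc1a3, Gja1 and S100b, were called lower, all named after their values were seen, with a summed signal of 7318 to 9062 in pEGFR-Hi mice and 9635 to 10278 in pEGFR-Lo mice. Csf1r of microglia was below background on all 12 arrays, Cx3cr1 was 5.18 to 5.39 in pEGFR-Hi mice and 4.85 to 5.49 in pEGFR-Lo mice, and Mog of myelin was 3.87 to 4.08 in pEGFR-Hi mice and 3.84 to 4.18 in pEGFR-Lo mice. Of 13 microglia and macrophage markers 1, Cd68, was called higher in pEGFR-Hi (2.36-fold) and 1, P2ry12, was called lower (3.36-fold). The summed signal of the list was 291 to 376 in pEGFR-Hi mice and 303 to 423 in pEGFR-Lo mice. Of 11 markers of myelinating oligodendrocytes 1, Ermn, was called lower in pEGFR-Hi, by at least 2.57-fold. The summed signal of the list was 168 to 185 in pEGFR-Hi mice and 221 to 273 in pEGFR-Lo mice. Ermn weighed in this sum, at 3.02 to 3.62 in pEGFR-Hi mice and 4.29 to 6.57 in pEGFR-Lo mice. So did Cldn11, at 4.5 to 5.1 in pEGFR-Hi mice and 4.8 to 6.7 in pEGFR-Lo mice. The median log2 difference of the list was -0.08, so this sum does not show a shift of the list either. Of 14 endothelial and mural markers 1, Anpep, was called higher in pEGFR-Hi, by at least 2.38-fold, 1, Rgs5, was called lower, by at least 11.2-fold, and 12 did not pass. The summed signal was 219 to 310 in pEGFR-Hi mice and 248 to 667 in pEGFR-Lo mice. Rgs5 weighed heavily in this sum, at 3.61 to 4.33 in pEGFR-Hi mice and 5.72 to 8.80 in pEGFR-Lo mice, so the sum does not show a shift of the list. Syn1, Cd68, P2ry12, Ermn, Cldn11, Anpep and Rgs5 were named after their values were seen.

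Among the mice, mainly those of pEGFR-Lo, some other genes deviated together with Gria2. Over the deviations of all 12 mice from their group means, among 13518 genes above background, Ocrl, a phosphoinositide phosphatase gene, was most like Gria2 (Pearson's r = 0.96, Spearman's rho = 0.94), followed by Hhip, a hedgehog antagonist gene (r = 0.94, rho = 0.93), and Alcam, an adhesion molecule gene (r = 0.93, rho = 0.94). Without the 2 mice farthest from the median the r values were 0.91, 0.86 and 0.90. Cacng2, by its brighter probe set, was taken as the member with the largest difference toward pEGFR-Hi, though this was only 0.03 with an interval that spanned 0. The 3 genes most like it were Urad, Btnl9 and Me3 with r = 0.88 each. For Gria3, added after its values were seen, they were Mfap2 (r = 0.89), Kcne1l (r = 0.87) and Csrp1 (r = 0.86), and without the 2 farthest mice r was 0.86, 0.69 and 0.76. Gria2 and Gria3 were below background in every pEGFR-Hi mouse. Their SDs were larger in pEGFR-Lo (0.37 against 0.15 for Gria2, 1.51 against 0.11 for Gria3), so these r values rest mainly on the 6 pEGFR-Lo mice. All r values given are the highest of 13518 values per gene over 12 arrays that share normalization and RNA quality within each array. They are given as a description with no test.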

How the data were processed

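The authors hybridized RNA of sorted ZsGreen-tagged tumor cells to Affymetrix Mouse Gene 1.0 ST arrays and deposited log2 values made by RMA in Affymetrix Expression Console, which corrects background, gives all arrays one distribution and summarizes probes, so a change in total RNA per cell cannot be seen. The version, genome build and summary setting are not given in the sources used here. Array medians were 4.81 to 4.88. Groups and replicate numbers came from the sample titles. Of 35556 probe sets, 21789 had 1 gene symbol, 1621 several and 12146 none in the platform annotation, and those with 1 were used (21698 matched to RefSeq GRCm38.p6 by Entrez ID for current names and gene order).

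The brightest probe set per gene left 19938 genes, none filtered for low values. They were fitted with limma 3.58.1 (lmFit, eBayes) in R 4.3.3 and summarized in Python 3.11.15 with pandas 2.3.3, scipy 1.17.1 and matplotlib 3.10.9. The limits (1% false discovery rate, 2-fold) are those the methods used with SAM, which was run as an alternative with 100 permutations. Code was tested on simulated arrays. The members and lists were chosen with earlier results of these data known. Named genes are the 10 members, up to 4 called genes per direction of each AMPA pathway list (2 for other ionotropic receptors), defining markers, and the 3 genes most like the members with the largest difference in each direction. Adar, Adarb1 and Cacng1 were also named, though not called with all arrays. Other exceptions are stated. The number of arrays limits the precision.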

Additional observations from a re-analysis of the deposited data

Results flagged for a closer look

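Of 20 groups of 6 mice (10 genes in 2 tumor types), 1 held a mouse set apart from the others, where chance gives about 1 in 20. Cacng7 was 8.96 in pEGFR-Lo replicate 2, the lowest of that group, with a gap to the next mouse of 0.643 of the group's range, past Dixon's 95% limit. The same mouse had the highest Gria3 value of its group, 7.95.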

How the results depend on the processing

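The calls of Gria2 and Cacng4 held under all alternatives run: array weights, SAM, a further quantile normalization, array medians centred, dim genes left out, the mean of probe sets, a replicate block, eBayes with trend and robust, leaving out each array, odd or even replicates, and leaving out pEGFR-Lo replicates 3 and 6. The members called lower in pEGFR-Hi numbered 4 with all arrays, 3 to 4 leaving out each array, 3 in odd-numbered and in even-numbered replicates, and 2 without pEGFR-Lo replicates 3 and 6. Gria1 lost its call in even-numbered replicates (-1.01) and without pEGFR-Lo replicates 3 and 6 (-0.90), and leaving out each array gave -1.32 to -0.99, with the call lost without pEGFR-Lo replicate 6. Gria3 lost its call in odd-numbered replicates (-1.35), without pEGFR-Lo replicates 3 and 6 (-1.98) and under eBayes with trend and robust (-2.24). The causes were not tested. Differences near 0 that were never called changed sign: Cacng2 with the mean of probe sets (-0.0079) and in odd-numbered replicates (-0.0036), Cacng3 in even-numbered replicates (0.0177), and Cacng5 in odd-numbered replicates (-0.0645) and without pEGFR-Lo replicates 3 and 6 (-0.0535). Leaving out each array, the ranges were -0.0095 to 0.0882 for Cacng2, -0.0917 to 0.0138 for Cacng3 and -0.0543 to 0.135 for Cacng5. In odd-numbered replicates 1 editing deaminase, Adar, was called higher in pEGFR-Hi, against 0 with all arrays. With an adjusted p limit of 0.05 and no fold limit, 3871 genes passed as higher and 3314 as lower in pEGFR-Hi, against 795 and 1009 at the main limits.

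With the replicate number as a block, 801 genes were called higher and 1008 lower in pEGFR-Hi, 4 members were called, and no call of a member changed. The numbers do not pair the mice: deviations of same-numbered mice correlated at -0.14 to 0.10. Gria4 and Cacng3 have no value with dim genes left out. Probe sets at background limit what can be said of Gria1, Gria4 and Cacng3.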
